A study of Homo sapiens with 4 samples.

Results

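The cells described here are the 5% of cells with the highest FOXO score in each of the 2 BT474 libraries that received no HER2 family inhibitor. They number 212 of 4240 cells in the DMSO library and 170 of 3394 cells in the fulvestrant library, together 382 of 7634, in a series of 14867 cells. They were chosen by measured values: the summed UMIs (unique molecular identifiers, 1 per captured RNA molecule) of TNFSF10, CALCOCO1, KLHL24, YPEL2, PIK3IP1, FBXO32, HBP1 and CCNG2 per 10000 UMIs of the cell. BT474 is an established human line from a breast tumour; it expresses the estrogen receptor and has extra copies of ERBB2, which encodes HER2. RNA was counted per cell by droplet sequencing of transcript 3′ ends (10x Genomics). All 4 groups were this line, maintained in medium with serum and treated for 4 h: vehicle (DMSO), 100 nM fulvestrant (which blocks the estrogen receptor and triggers its breakdown), 200 nM neratinib (which blocks HER family kinases by covalent binding), and fulvestrant with neratinib at the same doses. Each group was 1 library, so no difference was tested between groups, and cells of a library were not used as replicates. Because the members were picked on these same cells, their contrast with the other cells of the library is a description. Square brackets give 95% intervals. They cover counting error only, not the spread between cultures, which 1 library cannot show.

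FOXO1, FOXO3 and FOXO4 are transcription factors that the kinase AKT phosphorylates and keeps out of the nucleus while receptors such as HER2 and the insulin receptor signal through PI3K. When that signal drops, FOXO factors enter the nucleus and switch on genes of cell cycle exit, autophagy, cell death and receptor feedback. In HER2-amplified breast cancer cells this is best known from treatment with HER2, PI3K or AKT inhibitors, and the 8 genes of the score are among those that rise then. The cells described here score high without such an inhibitor. Only RNA was measured, so the place of the FOXO proteins in these cells is not known.

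The core DNA sequence that FOXO factors bind in promoters, GTAAACA, was searched on both strands (its other strand reads TGTTTAC) in windows from 250 bases before to 50 bases after RefSeq gene starts (GRCh38.p14). The letters were found in 3.42% of 35116 windows and for 4.19% of 27305 genes. Of the score genes, 6 had a window and 2 held the letters, HBP1 at chr7:107168819-107168848 on the plus strand and PIK3IP1 at chr22:31292454-31292483 on the minus strand. Among the FOXO targets outside the score 10 of 41 genes held them (24.4%). They include BTG1 (chr12:92146037-92146066, minus), TXNIP (chr1:145996685-145996714, minus) and MXI1 (chr10:110225983-110226012, plus), which are described below. They also include YPEL3 (chr16:30096195-30096224, minus) and CCDC28A (chr6:138773758-138773787, plus), which were higher in the neratinib libraries than in those without neratinib. The 30 bases around each match are shown 5′ to 3′ on the strand of the gene, with the match in capitals, because these are the genes whose levels the text follows; a match is no evidence of binding.
HBP1: catcttctccaGTAAACAcaacacaaaagt
PIK3IP1: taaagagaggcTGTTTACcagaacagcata
BTG1: ccgggtttattTGTTTACaagcggattacg
TXNIP: tcgggctcctgGTAAACAaggaccgggcag
MXI1: cgcggggagagGTAAACAaaccacgcgcgg
YPEL3: ctgggctcggtGTAAACAagtccaggcgcc
CCDC28A: acgtcacttccGTAAACAaacggagctgcg

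The members were the upper tail of a distribution with no gap at the cut. In DMSO the lowest member scored 5.6901 and the highest other cell 5.6856, and in fulvestrant these were 5.872 and 5.864. The median was 6.73 in DMSO members against 1.89 in the other DMSO cells, and 7.05 against 2.22 in fulvestrant, with highest members at 19.5 and 14.5. Within 10% of the cut lay 67 DMSO members and 104 other DMSO cells, and 50 and 76 in fulvestrant; those members were 31.6% and 29.4% of the class. A member carried a median of 12 score UMIs in either library (from 3 to 32 in DMSO and from 4 to 40 in fulvestrant). In the neratinib library the other cells already had a median of 6.94, and 71.5% [70.0, 73.0] of all its cells reached the DMSO cut. With both drugs 74.8% [73.4, 76.2] did so, and with fulvestrant alone 5.77% [5.01, 6.61]. The score genes had log2 ratios from 1.22 (CCNG2) to 2.84 (TNFSF10) in neratinib over DMSO. The members were chosen with earlier results of these data known. The shift of the neratinib libraries past the cut was thus built into the choice of genes, and nothing is concluded from it.

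**Figure D1:**
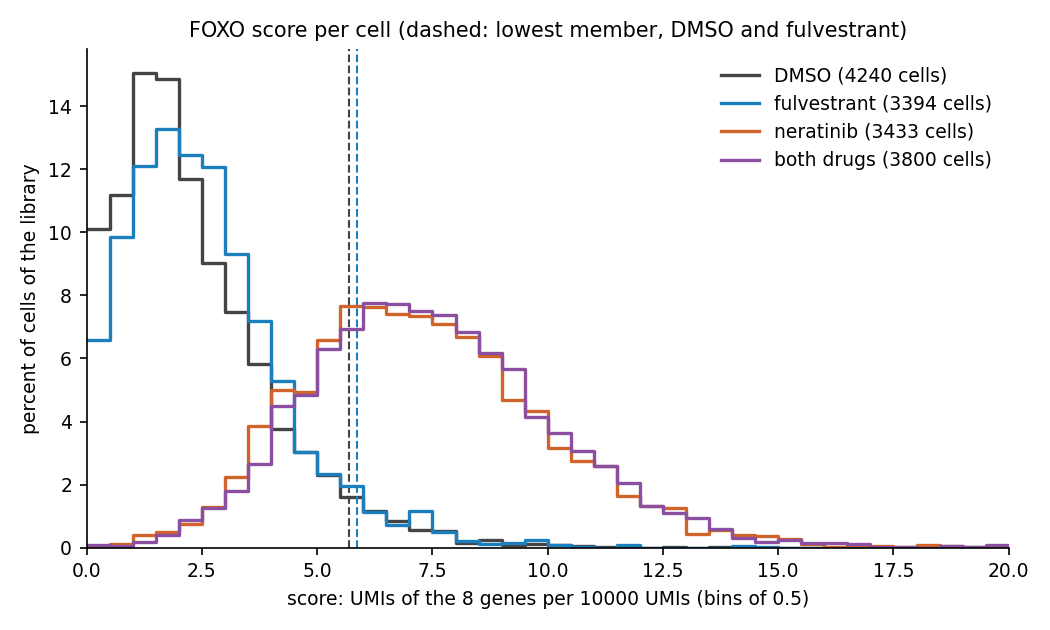
Distribution of the score over cells in each of the 4 libraries. The x axis gives UMIs of the 8 score genes per 10000 UMIs in bins of 0.5, drawn up to 20, and the y axis the percent of the library's cells; dashed lines mark the lowest member in DMSO (5.69) and fulvestrant (5.87). Both libraries without neratinib peak near 2 with a thin upper tail, while both neratinib libraries lie mostly to the right of the dashed lines.

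Before any gene is read, these properties of the members should be known. They were shallower than the other cells: the median was 16961 UMIs against 23107 in DMSO and 17433 against 23683.5 in fulvestrant. Thinned to 5000 UMIs, they showed a median of 1774.5 genes against 1818 in DMSO and 1795 against 1808 in fulvestrant. Their mitochondrial share was 17.0% against 16.2% in DMSO and 16.3% against 16.6% in fulvestrant. Doublets were not called and stayed in; 2 DMSO members and 2 fulvestrant members lay above the 95th percentile of UMIs of their library. Across the 4 libraries 44 cells shared a barcode with a cell of another library, and 0 of them were members. The luminal breast epithelial markers EPCAM, KRT8, KRT18, KRT19, GATA3, ESR1, ERBB2, TFAP2A and FOXA1 were all detected in members, with a summed level of 9106 CPM (counts per 1000000 UMIs) against 8006 in DMSO and 8625 against 7726 in fulvestrant. Immune, endothelial and basal markers summed to at most 2.5 CPM in members or other cells of these 2 libraries, with PTPRC, CD3D and CD3E (immune), KDR and TEK (endothelial) and KRT5, KRT14 and KRT17 (basal) at 0 in members of both. Of 6 fibroblast markers 5 were at 0 in members, and COL1A1, a collagen chain, stood at 19.0 CPM against 11.2 in DMSO and 19.7 against 12.1 in fulvestrant, with log2 ratios of 0.21 [-0.21, 0.61] and 0.30 [-0.15, 0.72] within G1 cells.

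The 8 score genes did not weigh alike. CCNG2, an atypical cyclin linked to cell cycle arrest, gave 39.4% of the score UMIs of DMSO members and 40.0% of those of fulvestrant members, and was the leading gene in 129 and 97 of them. YPEL2, a Yippee family gene of little known function, gave 19.5% and 19.8%, against 13.6% and 14.3% in the other cells. KLHL24, a cullin ubiquitin ligase adaptor, HBP1, a repressor of cell cycle genes, and FBXO32, the ubiquitin ligase subunit known from muscle atrophy, each gave between 9.35% and 11.05%. TNFSF10, the death ligand TRAIL, gave 4.54% and 4.42%, and PIK3IP1, which restrains PI3K, and CALCOCO1, an autophagy receptor and coactivator, at most 3.08%. Members showed UMIs of a median of 5 of the 8 genes in DMSO and 4 in fulvestrant. Only 2 DMSO members and 0 fulvestrant members showed all 8, and 13 and 14 owed their score to at most 2 genes.

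Since the score fixes the sum, each of its genes was also read in cells chosen by the other 7 genes, a choice the gene took no part in. All 8 genes were then higher in the chosen cells of both libraries. The median log2 ratio of the 8 was 1.38 in DMSO (0.68 to 2.02) and 1.04 in fulvestrant (0.57 to 1.51). TNFSF10 stood at 24.7 CPM in chosen DMSO cells against 6.10 in the others, a log2 ratio of 2.02 [1.68, 2.34], and in fulvestrant at 15.9 against 7.39, or 1.11 [0.65, 1.54]. A single DMSO member held 17 of the 118 TNFSF10 UMIs found over all DMSO members. FBXO32 was at 40.6 against 15.8 CPM in DMSO (1.36 [1.11, 1.61]) and 41.8 against 14.7 in fulvestrant (1.51 [1.22, 1.78]).

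For PIK3IP1 the values were 16.9 against 6.32 CPM in DMSO (1.42 [1.02, 1.80]) and 12.7 against 7.44 in fulvestrant (0.78 [0.26, 1.26]). KLHL24 had log2 ratios of 1.39 and 1.17, YPEL2 of 1.44 and 1.20, and CALCOCO1 of 1.11 and 0.97 in DMSO and fulvestrant. The cell cycle genes of the score had the lowest ratios, HBP1 at 0.94 [0.71, 1.16] and 0.67 [0.41, 0.92], and CCNG2 at 0.68 [0.56, 0.80] and 0.57 [0.44, 0.71]. In the neratinib library the same procedure gave a median of 0.36, and with both drugs 0.45. There CCNG2 was at -0.11 [-0.22, 0.00] and 0.00 [-0.10, 0.10], and TNFSF10 at 0.44 [0.23, 0.64] and 0.60 [0.39, 0.79]. For all 8 genes the interval in the DMSO library lay above that in either neratinib library, a difference for which no replicate check exists.

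**Figure D2:**
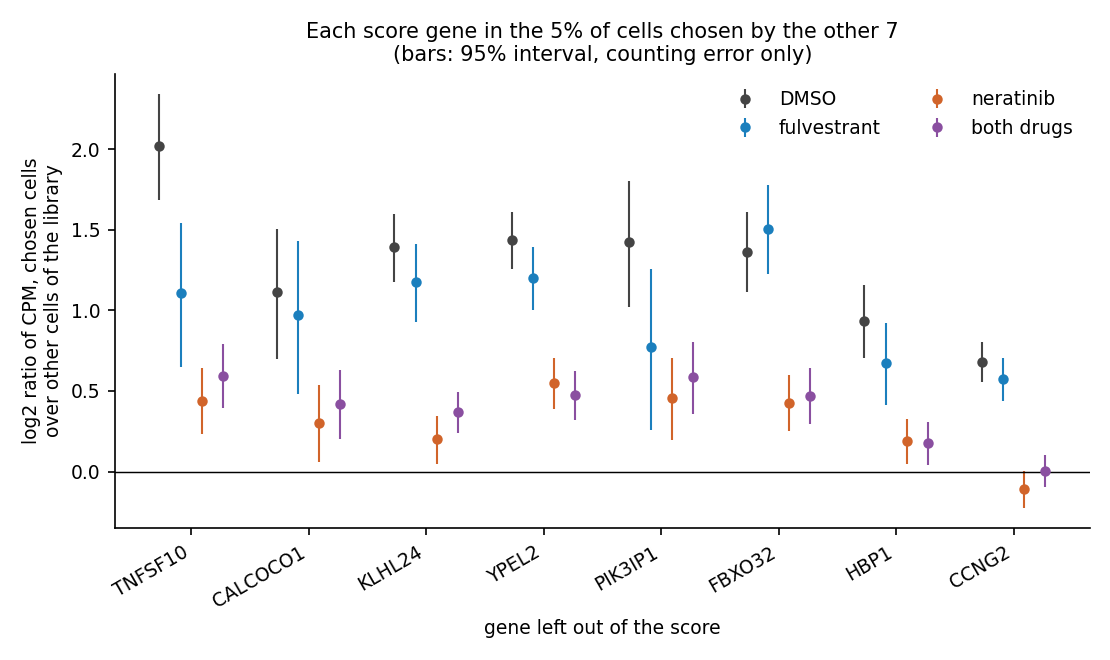
Each score gene in the 5% of cells chosen by the other 7 score genes, in the 4 libraries. The y axis is the log2 ratio of CPM of the chosen cells over the other cells of the library, points are ratios and bars 95% counting intervals. All points of DMSO and fulvestrant lie above 0, while those of the neratinib libraries lie closer to 0, with CCNG2 at -0.11 and 0.00.

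A further reading split every cell's UMIs at random into 2 sets of like size, chose cells on one and read the genes in the other. The summed score genes were then at 1.19 [1.08, 1.29] in DMSO and 1.099 [0.99, 1.21] in fulvestrant, against 2.06 and 1.88 in the UMIs that made the choice. In the neratinib library the unused UMIs gave 0.43 [0.35, 0.50], and with both drugs 0.41 [0.34, 0.48]. Of the 212 cells chosen this way in DMSO 127 were members, and 104 of 170 in fulvestrant. When cells were instead chosen within each cell cycle phase, the median of the left-out genes was 1.12 in DMSO and 0.90 in fulvestrant. Chosen within each of 10 bins of UMI depth, it was 1.12 and 0.81.

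The whole profile compares summed counts of members and other cells for genes with at least 10 CPM in the library. A gene is called higher or lower where the log2 ratio was at least 0.32 in size and its interval left out 0; score genes are left out of these counts. In DMSO 659 of 7363 genes were higher (8.95%) and 952 lower (12.9%). In fulvestrant 613 of 7382 were higher (8.3%) and 779 lower (10.6%). Of the 7274 genes measured in both, 265 were higher in both (3.64%) and 566 lower in both (7.78%). The median gene lay at -0.02 in DMSO and -0.00 in fulvestrant. Across those 7274 genes the profiles of the 2 libraries had r = 0.80 and rho = 0.65, as a description over genes that share cell cycle and depth; the libraries share no cells. Among G1 cells alone r was 0.38.

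FOXO targets outside the score were the first list read, since they bear on the name of the class. The list was chosen with earlier results of these data known, so it is not an independent check of that name. Of 45 listed genes, 27 were measured in DMSO, where 18 were higher and 0 lower with a median log2 ratio of 0.46; in fulvestrant 18 of 28 were higher and 0 lower, with a median of 0.45. In both libraries 16 were higher. Over all genes 8.95% were higher in DMSO, 8.3% in fulvestrant and 3.64% in both. CREBRF, a regulator of the CREB3 stress factors and of energy storage, stood at 35.5 CPM in DMSO members against 11.2 in other cells (1.66 [1.39, 1.92]) and at 26.3 against 13.8 in fulvestrant (0.93 [0.58, 1.27]). TP53INP1 and TP53INP2, which promote autophagy, were at 1.00 [0.73, 1.252] and 1.15 [0.90, 1.39] in DMSO and at 0.92 [0.64, 1.20] and 0.90 [0.63, 1.17] in fulvestrant. All 3 genes were higher in members of both libraries, and TP53INP1 is also a listed p53 target.

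FOXO3 itself was at 109 CPM in DMSO members against 67.7 (0.69 [0.54, 0.83]) and at 93.5 against 64.5 in fulvestrant (0.54 [0.35, 0.71]). FOXO1 and FOXO4 were too scarce to read, with 8 and 2 UMIs in all DMSO members and 5 and 3 in all fulvestrant members. The antiproliferative genes BTG1 and BTG2 were at 0.51 and 0.72 in DMSO and at 0.45 and 0.74 in fulvestrant. BTG2 is also a listed p53 target and a listed immediate early gene. TXNIP, a brake on glucose uptake, was at 0.47 and 0.53, MXD4, an antagonist of MYC at its binding sites, at 0.46 and 0.44, and CITED2, a transcription cofactor, at 0.74 and 0.68. MXI1, a relative of MXD4 that stayed under the 10 CPM limit, was at 0.72 [0.29, 1.13] on 51 UMIs and 1.23 [0.80, 1.63] on 54 UMIs. MXD3 and BTG3, relatives of MXD4 and BTG1, were lower in both libraries. MXD3 stood at 8.80 CPM against 25.9 in DMSO and at 13.2 against 26.3 in fulvestrant, and BTG3 was at -0.65 and -1.03. Within G1 cells MXD3 was at 0.16 and 0.31 and BTG3 at 0.35 and 0.10, where neither passed the rule. Both are on the list of Kruppel and MXD quiescence factors. Of that list 5 of 14 genes were higher and 2 lower in DMSO, and 8 of 15 and 2 in fulvestrant. The autophagy gene MAP1LC3B and the mitophagy receptor BNIP3 were at 0.43 and 0.54 in DMSO and at 0.47 and 0.46 in fulvestrant.

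Other FOXO targets did not pass the size rule in both libraries, or stayed under 10 CPM and were not counted. CDKN1B, the CDK inhibitor p27, stood at 52.0 CPM in DMSO members against 55.8 (-0.10 [-0.32, 0.11]) and 56.8 against 58.1 in fulvestrant (-0.03 [-0.27, 0.19]). ERBB3, the HER2 partner receptor that FOXO factors raise under HER2 inhibition, was at 0.00 [-0.20, 0.19] and 0.12 [-0.09, 0.33]. YPEL3 was at 38.8 against 30.3 CPM (0.36 [0.10, 0.60]) in DMSO, where it passed, and at 41.9 against 34.5 (0.28 [0.01, 0.55]) in fulvestrant, where it missed. Within G1 cells YPEL3 passed in both, at 0.58 [0.29, 0.86] in DMSO and 0.39 [0.08, 0.69] in fulvestrant. Of those under 10 CPM, INSR, the insulin receptor, was at 0.35 [-0.20, 0.85] and 0.51 [-0.06, 1.03] on 33 and 31 UMIs. IRS2, the adaptor of that receptor, was at 0.38 [-0.77, 1.34] in DMSO and 1.74 [0.86, 2.52] in fulvestrant on 9 and 15 UMIs, 5 of the latter in a single member. CCDC28A was at 0.33 in both libraries, with intervals from -0.38 to 0.96 and from -0.44 to 1.01.

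Cell cycle, depth and mitochondrial share moved with membership, so the FOXO list was read under each. Among G1 cells alone, 15 of 30 list genes were higher and 0 lower in DMSO (median 0.38), and 16 of 30 and 0 in fulvestrant (0.35), where the shares over all genes were 6.44% higher and 3.66% lower in DMSO and 6.43% and 2.57% in fulvestrant. Members chosen within each bin of depth gave medians of 0.34 and 0.38, and members chosen within each phase 0.41 and 0.43. With at most 20% mitochondrial UMIs the medians were 0.38 and 0.46. Within G1, CREBRF was at 1.37 [1.06, 1.67] in DMSO and 0.52 [0.12, 0.91] in fulvestrant, and FOXO3 at 0.53 [0.36, 0.69] and 0.42 [0.22, 0.61]. TP53INP1 and TP53INP2 had smaller ratios there than over all phases. TP53INP1 was at 0.41 [0.12, 0.69] and 0.36 [0.06, 0.65], and TP53INP2 at 0.56 [0.30, 0.82] and 0.37 [0.09, 0.64]. MAP1LC3B lost its call there in DMSO, at 0.11 [-0.09, 0.29], and was at 0.34 [0.14, 0.54] in fulvestrant.

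**Figure D3:**
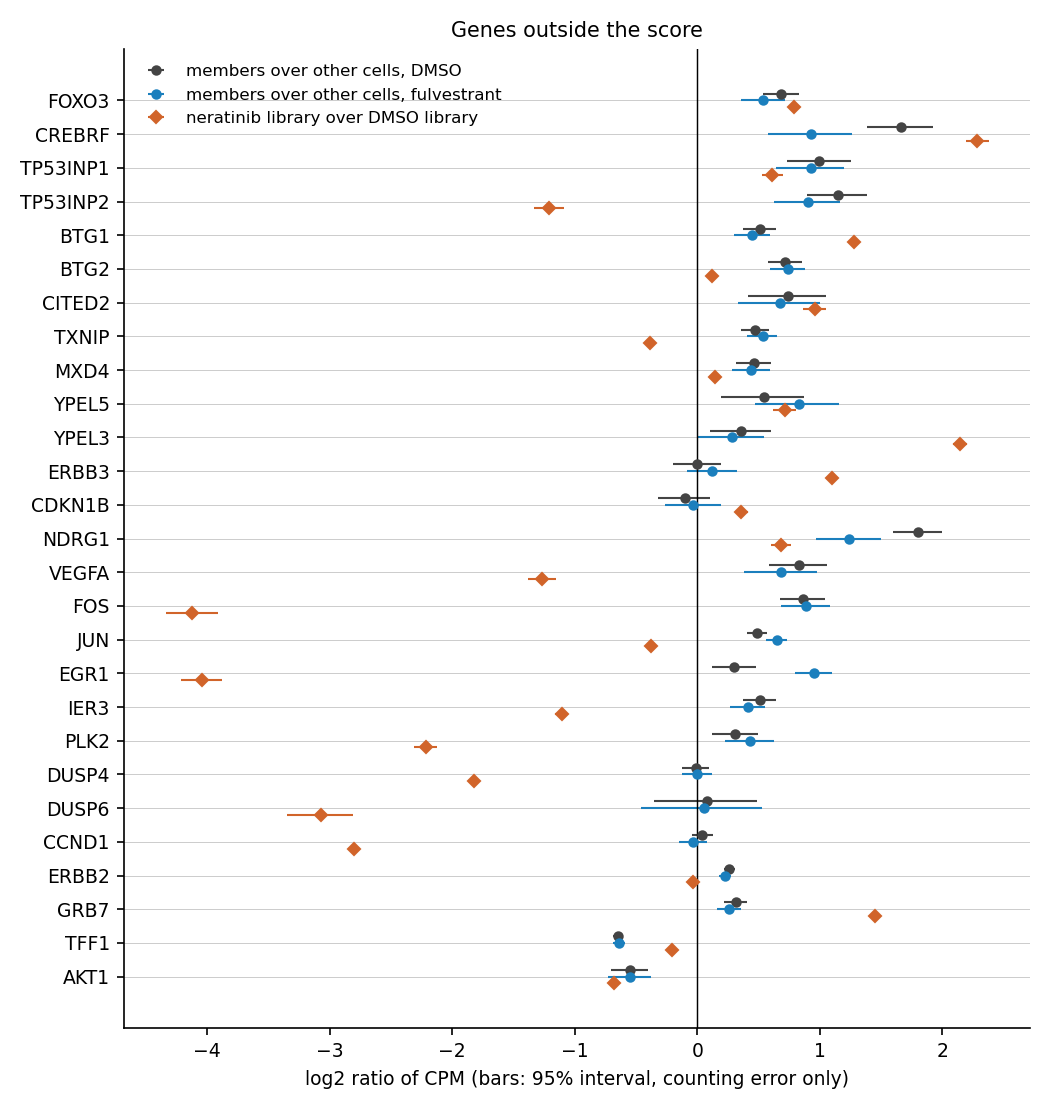
Log2 ratios of CPM for 27 genes outside the score, with members over other cells in DMSO and in fulvestrant (circles) beside the neratinib library over the DMSO library (diamonds); bars are 95% counting intervals. The upper FOXO targets lie right of 0 in members, ERBB3 and CDKN1B near 0, and FOS, EGR1, DUSP6 and CCND1 lie far left with neratinib alone.

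Cell cycle genes had the widest gap between members and other cells. Of 40 measured S phase genes 40 were lower and 0 higher in DMSO (median -1.49) and 40 and 0 in fulvestrant (-1.32). Of 51 measured G2M genes 50 were lower in DMSO (-1.57) and 47 in fulvestrant (-1.24), with 0 higher in either. Over all genes 12.9% and 10.6% were lower. FAM111B, a protease of replicating cells, stood at 7.98 CPM against 60.0 in DMSO (-2.91 [-3.49, -2.39]) and at 10.4 against 64.8 in fulvestrant (-2.64 [-3.21, -2.13]). CDK1, the mitotic kinase, was at 22.0 against 133 CPM (-2.59) and 29.4 against 127 (-2.10), and RRM2, a ribonucleotide reductase subunit, at -2.44 and -2.35. The proliferation marker MKI67 was at 15.1 against 63.4 CPM in DMSO (-2.07 [-2.48, -1.69]) and 28.7 against 61.7 in fulvestrant (-1.102 [-1.43, -0.79]).

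The 15 genes with the lowest mean ratio of the 2 libraries were EXO1, FAM111B, ESCO2, MTFR2, SPC25, RIBC2, E2F1, MCM10, RRM2, HIST1H1B, CDC45, CDK1, DSCC1, MND1 and CLSPN, most of them replication, cohesion or kinetochore genes. E2F1, the transcription factor of S phase entry, was at -3.43 [-5.06, -2.21] in DMSO on 5 UMIs and at -1.69 [-2.53, -0.96] in fulvestrant on 15. CCNE2, cyclin E2, was at -2.05 and -1.499, and CDK2 at -1.30 and -1.28. Of the E2F, cyclin D and CDK inhibitor genes 0 were higher. In DMSO 9 of 15 were lower and in fulvestrant 8 of 16, beside 12.9% and 10.6% of all genes. CCND1, cyclin D1, stood at 324 CPM against 315 in DMSO (0.04 [-0.04, 0.13]) and at 240 against 246 in fulvestrant (-0.03 [-0.15, 0.08]).

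Phase calls on cells thinned to 5000 UMIs gave the same picture per cell. G1 was called in 84.9% [79.4, 89.4] of DMSO members against 52.0% [50.5, 53.6] of other cells, and in 85.3% [79.1, 90.3] against 52.0% [50.3, 53.8] in fulvestrant. S phase was called in 3.30% against 20.1% and 3.53% against 21.9%, and G2M in 11.8% against 27.9% and 11.2% against 26.1%. Put the other way, 180 of 2275 G1 cells were members in DMSO (7.91%), 7 of 818 S phase cells (0.856%) and 25 of 1147 G2M cells (2.18%). In fulvestrant these were 7.95%, 0.843% and 2.21%. Phase was not checked against DNA content, and free RNA can enter such calls. Phase and depth both moved with membership. Chosen within each bin of depth, members were G1 in 69.5% (DMSO) and 72.9% (fulvestrant), and the S phase medians were then -0.62 and -0.68 and the G2M medians -0.16 and -0.29. Among G1 cells alone, a class that these same lists define, the S phase medians were -0.05 and 0.01, and CDK1 was at 0.14 and 0.38 with intervals on both sides of 0.

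Genes of ERK output, which report signalling from HER2 through the MAP kinases, had medians near 0. Of 7 measured, 1 was higher and 1 lower in DMSO (median 0.04) and 2 were higher and 0 lower in fulvestrant (0.06). Over all genes 8.95% were higher and 12.9% lower in DMSO, and 8.3% and 10.6% in fulvestrant. The sign of both list medians changed under other choices of members. Within G1 cells the medians were -0.03 and 0.24, the latter with 2 of 7 higher. Per cell, the summed list passed the other cells' 95th percentile in 2.83% of DMSO members [1.05, 6.06] (3.57% of other cells) and in 16 fulvestrant members (9.41% [5.48, 14.8]; 3.72% of other cells). DUSP6, the feedback phosphatase of ERK, stood at 13.8 CPM in DMSO members against 13.0 (0.08 [-0.36, 0.49]) and at 12.8 against 12.3 in fulvestrant (0.06 [-0.46, 0.53]). DUSP4, of the same family, was at -0.01 and -0.00. IER3, an early survival gene, was the member higher in both libraries, at 0.51 [0.38, 0.64] and 0.41 [0.27, 0.56]. PHLDA2 was the gene lower in DMSO, at -0.64 [-0.89, -0.40], and was at 0.16 [-0.06, 0.37] in fulvestrant. Within G1 cells PHLDA2 was at -0.45 [-0.72, -0.20] and 0.34 [0.10, 0.56], and in neratinib over DMSO it was at -3.10. In the neratinib library over DMSO, 6 of 6 measured ERK output genes were lower, with a median of -2.02, and DUSP6 stood at 1.55 CPM. Across all 7231 genes measured in that comparison 8.12% were higher and 32.2% lower, and the median gene lay at -0.18.

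Immediate early genes, the fast targets of ERK and stress signals, were higher in members. In DMSO 7 of 17 were higher and 0 lower (median 0.35), and in fulvestrant 12 of 17 and 0 (0.51), beside 8.95% and 8.3% of all genes higher. In both libraries 7 of the list were higher, beside 3.64% of all genes. FOS, a subunit of the AP-1 factor, stood at 71.3 CPM in DMSO members against 39.1 (0.86 [0.68, 1.05]) and at 75.5 against 40.8 in fulvestrant (0.89 [0.68, 1.09]). JUN, its partner, was at 341 against 243 CPM (0.49 [0.40, 0.57]) and 400 against 255 (0.65 [0.56, 0.73]). EGR1, a zinc finger factor, was at 0.30 [0.12, 0.48] in DMSO, below the size rule, and at 0.95 [0.80, 1.101] in fulvestrant, where 1 member held 13.2% of its UMIs and the ratio without it was 0.75. KLF10 was at 0.34 [-0.05, 0.71] and 1.35 [1.00, 1.69], the latter 0.81 without 1 member. Within G1 cells the list medians were 0.36 and 0.50 and FOS was at 0.80 and 0.78. In the neratinib library FOS was at 2.31 CPM and EGR1 at 3.74, and 11 of 16 measured early genes were lower than in DMSO.

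Hypoxia and glycolysis genes were higher in part of the members. In DMSO 11 of 21 were higher and 0 lower (median 0.35), and in fulvestrant 10 were higher and 1 lower (0.23). Over all genes 8.95% and 8.3% were higher. NDRG1, a stress gene induced by low oxygen, stood at 63.3 CPM against 18.1 in DMSO (1.80 [1.598, 2.00]) and at 44.3 against 18.8 in fulvestrant (1.24 [0.97, 1.502]). EGLN3, an oxygen-sensing hydroxylase, was at 1.103 and 0.64, VEGFA, the vascular growth factor, at 0.83 and 0.68, and KDM3A, a histone demethylase, at 0.72 and 0.61. The glycolytic enzymes differed less: LDHA was at 0.35 and 0.18, PGK1 at 0.39 and 0.23, and PKM at -0.05 and -0.02. DDIT4, an mTOR inhibitor induced by hypoxia, FOXO factors and other stress, was at 57.8 against 19.5 CPM in DMSO (1.57 [1.36, 1.78]) and 38.1 against 25.6 in fulvestrant (0.57 [0.28, 0.85]). Within G1 cells 14 of 23 measured genes of the hypoxia list were higher and 0 lower in DMSO (median 0.45). In fulvestrant 9 of 23 were higher and 0 lower among G1 cells (0.14). Over all genes in G1 cells 6.44% were higher in DMSO and 6.43% in fulvestrant. DDIT4 was at 0.88 [0.63, 1.11] in DMSO and at 0.06 [-0.26, 0.37] in fulvestrant within G1 cells. Without the 21 DMSO and 15 fulvestrant members that were high for the hypoxia list, its median was 0.10 in DMSO and -0.12 in fulvestrant. A fall was built into that choice, which removed members by this same list, so nothing is concluded from it. The median of the FOXO targets was then 0.40 in DMSO and 0.46 in fulvestrant.

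Members were also compared with each other, on summed list levels per cell thinned to 5000 UMIs. FOXO targets outside the score passed the 95th percentile of the other cells in 38 of 212 DMSO members (17.9% [13.0, 23.8]; 4.10% of other cells) and in 21 of 170 fulvestrant members (12.4% [7.81, 18.3]; 2.95%). The hypoxia list did so in 9.91% of DMSO members (4.92% of other cells) and 8.82% of fulvestrant members (4.75%). For the immediate early genes these were 8.96% (4.22% of other cells) and 12.9% (4.28%). Hypoxia and early genes coincided in 2 DMSO and 3 fulvestrant members, hypoxia and FOXO targets in 8 and 2, and early genes and FOXO targets in 7 and 8. With these overlaps counted in, the hypoxia list was high in 21 and 15 members and the early list in 19 and 22. Only small overlaps were thus possible. BTG2 is on both the early list and the FOXO list, so the overlap of those lists is in part built in. The overlap that separate lists would give was not computed, so these counts do not show whether the lists mark different members. In 151 DMSO members (71.2%) and 124 fulvestrant members (72.9%) none of the 3 lists passed that level. The same share among other cells was not computed. For the FOXO list, 39 members of each library lay below the other cells' median.

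Among the genes with the highest mean ratio were some that rest on few cells. PIP, a secreted apocrine protein, stood at 84.2 CPM in fulvestrant members against 13.7 (2.62 [2.41, 2.82]) and was at 2.41 without its top member, but in DMSO (29.4 against 17.2 CPM, 0.78) 1 member held 39.3% of the UMIs and the ratio without it was 0.06 [-0.32, 0.42]. CYP1A1, the target of the aryl hydrocarbon receptor, was at 1.19 in DMSO and 1.27 in fulvestrant, and at 0.86 and 1.06 without 1 member each; within G1 it was at 0.20 [-0.16, 0.54] and 0.70 [0.39, 0.99]. EDN1, the peptide endothelin, was at 1.12 and 1.21, PSCA, a surface antigen of epithelia, at 1.26 and 0.85, and PNRC1, a nuclear receptor coregulator, at 1.09 and 0.86. The rest of the 15 highest were NDRG1, CREBRF, DDIT4, TP53INP2, PGM2L1 (1.13 and 0.80), TP53INP1, FOS, EGLN3, HIST1H2AC (0.87 and 0.84) and CITED4 (0.91 and 0.79). Within G1 cells HIST1H2AC was at 0.23 and 0.32 and CITED4 at 0.26 and 0.34.

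**Figure D4:**
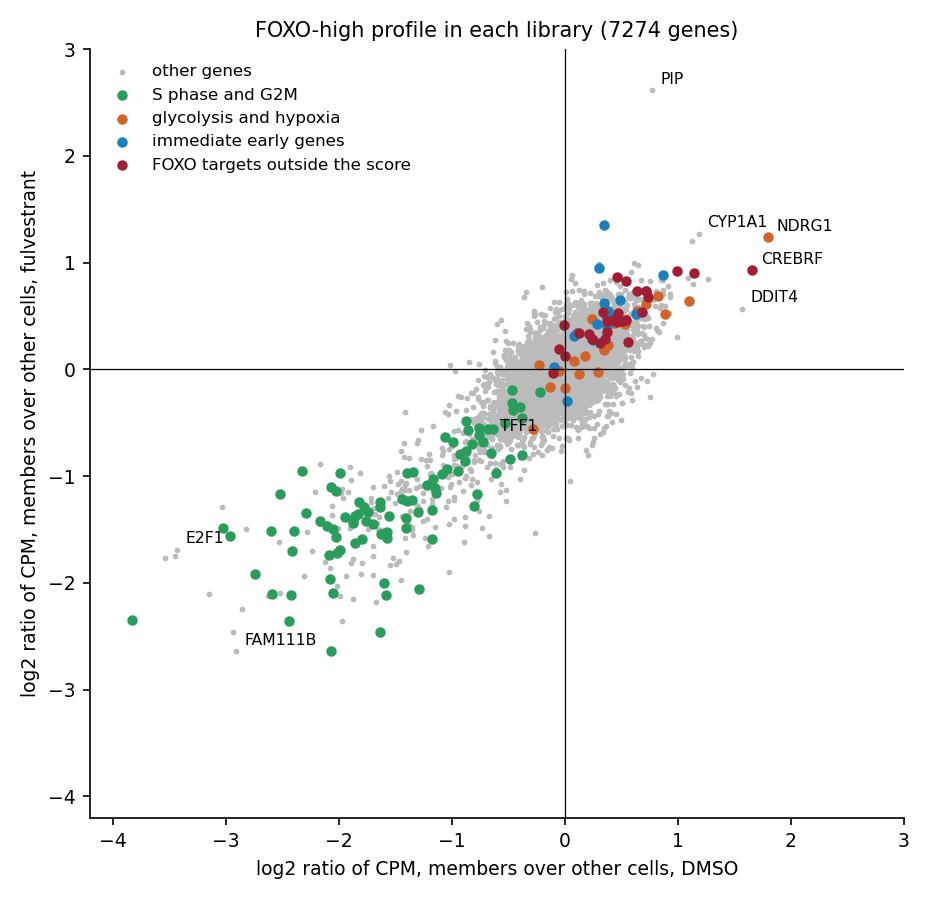
Log2 ratio of CPM, members over other cells, in DMSO (x axis) and fulvestrant (y axis) for 7274 genes; colours mark 4 gene groups. S phase and G2M genes fill the lower left, FOXO targets, early genes and hypoxia genes lie mostly in the upper right, and PIP stands apart at 0.78 and 2.62.

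Upstream of FOXO, genes of the insulin receptor and PI3K pathway were mixed. In DMSO 5 of 23 were higher and 2 lower (median 0.20), and in fulvestrant 5 of 22 and 2 (0.27). Over all genes 8.95% were higher and 12.9% lower in DMSO, and 8.3% and 10.6% in fulvestrant. The lower genes of the list did not exceed those shares. PIK3R3, a PI3K regulatory subunit, was at 0.67 [0.50, 0.84] and 0.48 [0.29, 0.67], the latter 0.21 within G1 cells. DEPTOR, an mTOR inhibitor, was at 0.42 and 0.57, but at -0.08 [-0.49, 0.31] and 0.37 [-0.10, 0.80] within G1 cells, and without 1 member each at 0.32 [-0.05, 0.68] and 0.46 [-0.01, 0.89]. AKT1, the kinase that inactivates FOXO factors, was lower in both, at 98.5 CPM against 144 in DMSO (-0.55 [-0.71, -0.40]) and 95.3 against 139 in fulvestrant (-0.55 [-0.73, -0.38]); within G1 cells it was at -0.22 and -0.27. ERBB2 was at 1159 CPM against 966 in DMSO (0.26 [0.22, 0.31]) and at 1184 against 1010 in fulvestrant (0.23 [0.18, 0.28]), under the size rule, and at 0.02 and 0.01 within G1 cells. GRB7, an adaptor co-amplified with ERBB2, was at 0.32 and 0.26, and at 0.38 and 0.37 within G1 cells. FGFR4, another receptor kinase, was at -0.49 and -0.32, and at -0.77 and -0.61 within G1 cells.

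Autophagy, clock and nuclear RNA lists had medians above 0. Of 28 autophagy and lysosome genes 5 were higher in DMSO and 7 in fulvestrant, with 0 lower (medians 0.21 and 0.22), beside 8.95% and 8.3% of all genes. Within G1 cells 1 of 27 was higher and 0 lower in DMSO, and 3 of 28 higher and 3 lower in fulvestrant. Over all genes the G1 shares were 6.44% higher and 3.66% lower in DMSO, and 6.43% and 2.57% in fulvestrant. NBR1, an autophagy receptor, was at 0.41 and 0.69, and NEU1, a lysosomal sialidase, at 0.47 and 0.44; within G1 cells both missed the rule in DMSO, at 0.18 [-0.16, 0.51] and 0.29 [-0.00, 0.57]. Of 5 measured clock genes 3 were higher in DMSO and 4 in fulvestrant, with 0 lower, beside the same 8.95% and 8.3% of all genes. Within G1 cells 3 of 5 were higher in DMSO and 3 of 4 in fulvestrant, with 0 lower (medians 0.59 and 0.62). DBP, a clock output factor, was at 0.80 and 0.59, and NR1D2, a clock repressor, at 0.47 and 0.71. PER3 was at 0.43 and 0.54, but at 0.33 [-0.10, 0.73] in DMSO without 1 member. Within G1 cells PER3 was at 0.60 [0.12, 1.04] and 0.70 [0.19, 1.17]. PER2 was at -0.13 [-0.63, 0.33] and 0.58 [0.10, 1.02], the latter 0.48 [-0.02, 0.94] without 1 member, and CLOCK at -0.13 and -0.23. KLF9, a glucocorticoid-induced Kruppel-like factor, was at 0.64 and 0.74. Nuclear noncoding RNAs were higher for 6 of 12 in DMSO and 6 of 11 in fulvestrant (0.35 and 0.33), again beside 8.95% and 8.3% of all genes. NEAT1, the scaffold of paraspeckles, was at 5237 CPM against 3265 in DMSO and 4962 against 3550 in fulvestrant, and at 0.42 and 0.25 within G1 cells, the latter under the size rule, while MALAT1 was at 0.06 and 0.19. Of the noncoding list 4 of 12 were higher in DMSO and 1 of 11 in fulvestrant within G1 cells. The nuclear noncoding list passed the other cells' 95th percentile in 9.91% of DMSO members and 11.8% of fulvestrant members; its part in the other results was not tested.

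Growth and estrogen lists had medians below 0, with counts that were in part near the shares over all genes (12.9% lower in DMSO and 10.6% in fulvestrant). Of the MYC and ribosome biogenesis genes 7 of 37 were lower and 1 higher in DMSO (median -0.17), and 5 of 35 and 1 in fulvestrant (-0.15). Within G1 cells 0 of 37 were lower and 2 higher in DMSO, and 1 of 36 and 3 in fulvestrant, with medians of -0.05 and -0.05. Over all genes in G1 cells 3.66% were lower and 6.44% higher in DMSO, and 2.57% and 6.43% in fulvestrant. NOP56, a snoRNP core protein, was at -0.48 and -0.38, and at -0.26 and -0.04 within G1 cells, under the size rule. MYC was at 0.16 [-0.01, 0.32] and 0.18 [-0.26, 0.58]. Estrogen receptor targets were lower for 10 of 25 in DMSO and 3 of 22 in fulvestrant, with 2 higher in each (medians -0.16 and -0.22), and within G1 cells for 5 of 24 and 4 of 20. TFF1, the abundant secreted trefoil peptide, stood at 1385 CPM against 2165 in DMSO (-0.64 [-0.69, -0.60]) and 1265 against 1967 in fulvestrant (-0.64 [-0.69, -0.59]), and was at -0.71 and -0.74 within G1 cells. ESR1, PGR and GREB1 did not pass, at 0.16, 0.14 and -0.10 in DMSO and 0.06, -0.20 and -0.41 in fulvestrant. GATA3 and ELF3, luminal transcription factors, were higher in both, at 0.44 and 0.69 in DMSO and at 0.35 and 0.41 in fulvestrant. Within G1 cells GATA3 missed the rule in both (0.321 and 0.27) and ELF3 in fulvestrant (0.23).

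**Figure D5:**
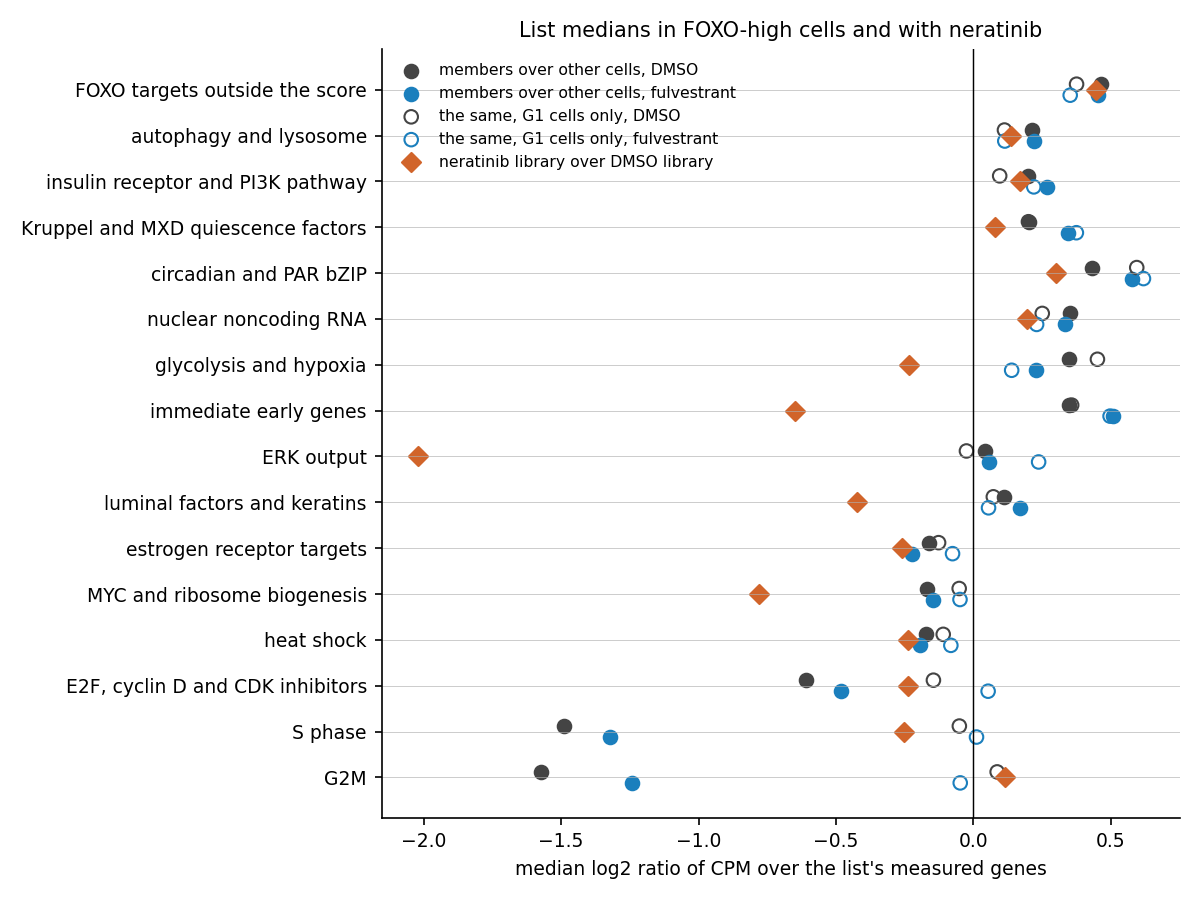
Median log2 ratio of CPM over the measured genes of 16 lists: members over other cells in DMSO and fulvestrant (filled circles), the same among G1 cells (open circles), and the neratinib library over the DMSO library (diamonds). FOXO targets lie between 0.35 and 0.46, S phase and G2M medians reach -1.57 and return to near 0 among G1 cells, and ERK output reaches -2.02 with neratinib alone.

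Likeness to the neratinib response was read only between comparisons that share no library. The DMSO profile had r = 0.22 and rho = 0.32 with both drugs over fulvestrant across 7071 genes, and the fulvestrant profile r = 0.20 and rho = 0.29 with neratinib over DMSO across 7094 genes. In both drugs over fulvestrant 8.08% of 7240 genes were higher and 31.4% lower, with the median gene at -0.17. Of the 641 genes higher in DMSO members and measured there, 169 (26.4%) were higher with both drugs over fulvestrant, which is 34.9% of the 484 genes higher in that response; over all 7071 genes 6.84% were. In the reverse sense 109 of the 641 (17.0%) were lower in the response. Of 914 genes lower in DMSO members, 437 (47.8%) were lower in the response and 29 (3.17%) higher, where 32.1% of all were lower. The fulvestrant members gave 26.6% higher and 21.3% lower of 586 higher genes, and 44.5% lower of 758 lower genes, beside 7.15% and 32.8% of all 7094. Members chosen within each phase gave r = 0.38 and 0.29, and cells with at most 20% mitochondrial UMIs r = 0.093 and 0.087.

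Gene levels in members can be set beside those of the neratinib library. The members' own levels of score genes are raised by the choice, so these genes are given in cells chosen by the other 7. Read so, CCNG2 stood at 154 CPM in DMSO and 165 in fulvestrant against 227 in the neratinib library, FBXO32 at 40.6 and 41.8 against 65.2, and HBP1 at 49.7 and 46.2 against 124. KLHL24 was at 56.3 and 52.4 CPM against 107, and YPEL2 at 78.5 and 78.8 against 73.0. Of these 5 genes, 4 were thus below the neratinib library in both libraries and YPEL2 was close to it. Outside the score, YPEL3 had 38.8 and 41.9 CPM in members against 135 with neratinib, ERBB3 62.4 and 69.3 against 134, and BRD8, a bromodomain subunit of the TIP60 complex, 22.8 and 24.6 against 59.0. TP53INP2, TXNIP and VEGFA ran opposite, higher in members of both libraries and at -1.21, -0.39 and -1.27 in neratinib over DMSO. CCND1 kept 324 CPM in DMSO members where the neratinib library held 45.2. FOXO targets outside the score had medians of 0.45 in neratinib over DMSO (19 of 31 higher, 3 lower) and 0.32 in both drugs over fulvestrant (16 of 32 higher, 3 lower).

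The 5% of cells with the highest score under neratinib had a profile within their own library that could be set beside that of the members. Across 6763 genes the DMSO profile had r = 0.72 with that of the neratinib library, and across 6771 genes the fulvestrant profile had r = 0.65 with that of both drugs. These top cells under neratinib were G1 in 86.6% and 82.6%, against 55.0% and 56.2% of the other cells, and had medians of 18200 and 18551 UMIs against 22743 and 22414. As in the members, G1 cells were more frequent and depth was lower than in the rest of the library.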

How the data were processed

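The deposited matrix holds UMI counts of 33538 genes per cell barcode, which the authors made with Cell Ranger 3.1.0 against hg19, per the submitters' processing notes; no coordinates were taken from it. The number that ends each barcode gave the library, matched to the number that starts the sample title. Barcodes with at least 5000 UMIs, at least 500 genes and at most 50% mitochondrial UMIs were kept, 14867 in all (3394 to 4240 a library, where the labels state a target of 3000), from libraries of 89559704 to 110511222 UMIs. Doublets were not called and were kept. UMI counts were summed over members and over other cells of a library and given as CPM; ratios have exact conditional binomial 95% intervals. Groups were 1 library each, so no test was made. Phases and list sums per cell came from cells thinned to 5000 UMIs, with thinned ties in the score broken by barcode. The 48 genes that share a symbol were kept apart by identifier.

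Named genes were a set that included the score genes, the 15 highest and 15 lowest mean ratios that passed the rule in both libraries, and up to 4 genes per list; other list genes were named after their values were seen. The members and lists were chosen with earlier results of these data known. The ratio script was tested on simulated data. The 15 planned and 2 added alternatives are given in the closing section. Tools were numpy 2.4.6, scipy 1.17.1, pandas 2.3.3, scanpy 1.11.5 and matplotlib 3.10.9.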

Additional observations from a re-analysis of the deposited data

How the results depend on the processing

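Every value below was recomputed with 1 choice changed, and 360 values moved by no more than 1.5 times (counts) or stayed in their interval, 155 moved further and 7 changed sign and left their interval; the cause was not tested. The words in parentheses name the choice: the top 2% or 10% of cells, cells with at most 20% mitochondrial UMIs (20% MT) or at least 10000 UMIs, the score on thinned cells (thinned), without mitochondrial UMIs (no MT), with the 8 genes weighted equally (equal weights), the top 5% within each phase (phase) or depth bin (depth), a mean over cells (cell mean), a larger fold, a minimum of 50 CPM, or no minimum (no filter). G1 cells only (G1) and leaving out members high for the hypoxia list (no hypoxia-high) were chosen after seeing the data. Scaling by the median of ratios moved none of these values past their limits. The number of higher genes in DMSO was 659 and became 402 (thinned), 403 (phase), 436 (depth), 146 (larger fold), 92 (50 CPM), 1489 (no filter), and in fulvestrant was 613 and became 367 (thinned), 367 (depth), 144 (larger fold), 101 (50 CPM), 1259 (no filter). The number of lower genes in DMSO was 952 and became 477 (phase), 474 (depth), 429 (larger fold), 381 (50 CPM), 266 (G1), and in fulvestrant was 779 and became 220 (phase), 471 (depth), 397 (larger fold), 295 (50 CPM), 187 (G1). The FOXO target median in DMSO was 0.46 and became 0.56 (top 2%), 0.33 (thinned), and in fulvestrant was 0.45 and became 0.64 (top 2%), 0.33 (top 10%), 0.31 (thinned). The number of higher FOXO targets in DMSO was 18 and became 7 (larger fold), 8 (50 CPM), and in fulvestrant was 18 and became 10 (thinned), 8 (larger fold), 8 (50 CPM). The immediate early gene median in DMSO was 0.35 and became 0.56 (top 2%), 0.38 (10000 UMIs), 0.42 (no MT), 0.26 (equal weights), 0.26 (phase), 0.24 (depth), and in fulvestrant was 0.51 and became 0.81 (top 2%), 0.37 (top 10%), 0.41 (thinned). The MYC and ribosome biogenesis median in DMSO was -0.17 and became -0.052 (G1), and in fulvestrant was -0.15 and became -0.071 (thinned), -0.049 (equal weights), -0.093 (phase), -0.049 (G1). The S phase median in DMSO was -1.49 and became -0.88 (thinned), -0.19 (phase), -0.62 (depth), -0.051 (G1), and in fulvestrant was -1.32 and became -1.54 (top 10%), -0.98 (thinned), -0.028 (phase), -0.67 (depth), 0.011 (G1). The G2M median in DMSO was -1.57 and became -1.26 (top 10%), -0.79 (thinned), -0.25 (phase), -0.16 (depth), 0.086 (G1), and in fulvestrant was -1.24 and became -1.01 (top 2%), -1.38 (10000 UMIs), -1.03 (thinned), -1.52 (equal weights), -0.067 (phase), -0.29 (depth), -0.048 (G1), -1.81 (no hypoxia-high). The glycolysis and hypoxia median in DMSO was 0.35 and became 0.095 (no hypoxia-high), and in fulvestrant was 0.23 and became -0.12 (no hypoxia-high). A fall was built into that choice, which removed members by the same list. The left-out gene median in DMSO was 1.38 and became 1.47 (no MT), and in fulvestrant was 1.04 and became 0.67 (thinned). The G1 percent of members in DMSO was 84.9 and became 79.2 (thinned), 69.5 (depth), and in fulvestrant was 85.3 and became 72.9 (depth). The median UMIs of members in DMSO was 16961 and became 18145.5 (top 10%), 17915.5 (20% MT), 17896 (10000 UMIs), 19347 (thinned), 17771 (phase), 22641.5 (depth), and in fulvestrant was 17433 and became 15880.5 (top 2%), 18304 (top 10%), 18247 (10000 UMIs), 19439.5 (thinned), 18173.5 (phase), 23209.5 (depth). The median mitochondrial percent of members in DMSO was 17.0 and became 16.1 (20% MT), 16.3 (thinned), 17.7 (no MT), and in fulvestrant was 16.3 and became 15.6 (20% MT), 17.2 (equal weights). The MALAT1 log2 ratio in DMSO was 0.063 and became 0.039 (top 2%), 0.092 (top 10%), 0.099 (20% MT), 0.11 (10000 UMIs), 0.072 (thinned), 0.12 (no MT), 0.072 (phase), 0.22 (depth), and in fulvestrant was 0.19 and became 0.068 (top 10%), 0.22 (20% MT), 0.18 (10000 UMIs), 0.18 (thinned), 0.14 (no MT), 0.095 (equal weights), 0.10 (phase). The NEAT1 log2 ratio in DMSO was 0.68 and became 0.78 (top 2%), 0.60 (top 10%), 0.52 (thinned), 0.76 (no MT), 0.63 (equal weights), 0.56 (phase), and in fulvestrant was 0.48 and became 0.52 (top 2%), 0.45 (top 10%), 0.51 (20% MT), 0.37 (thinned), 0.44 (equal weights), 0.34 (phase). The ERK output median in DMSO was 0.042 and, within its wide interval, also changed sign, to -0.081 (top 2%), -0.020 (equal weights), -0.022 (phase), -0.014 (depth), -0.072 (no filter), -0.025 (G1) and -0.0064 (no hypoxia-high). The ERK output median in fulvestrant was 0.057 and became -0.032 (top 10%), -0.023 (20% MT), -0.0696 (equal weights), -0.034 (phase). The number higher in both was 265 and became 128 (thinned), 144 (phase), 139 (depth), 52 (larger fold), 58 (50 CPM), 432 (no filter), 124 (G1). The number lower in both was 566 and became 69 (phase), 209 (depth), 303 (larger fold), 238 (50 CPM), 43 (G1). The r with the neratinib response in DMSO was 0.22 and became 0.24 (top 10%), 0.093 (20% MT), 0.24 (thinned), 0.38 (phase), 0.38 (depth), 0.29 (no filter), 0.30 (G1), and in fulvestrant was 0.20 and became 0.17 (top 2%), 0.087 (20% MT), 0.16 (thinned), 0.29 (phase), 0.28 (depth), 0.25 (no filter), 0.23 (G1), 0.17 (no hypoxia-high). The r between the libraries was 0.80 and became 0.63 (top 2%), 0.87 (top 10%), 0.78 (20% MT), 0.82 (10000 UMIs), 0.70 (thinned), 0.78 (no MT), 0.81 (equal weights), 0.49 (phase), 0.60 (depth), 0.74 (cell mean), 0.90 (50 CPM), 0.57 (no filter), 0.38 (G1). No paired analysis was possible because each group was 1 library. Precision is limited by the 382 members, and by the lack of a second library: no interval here holds the spread between cultures. Genes with few UMIs in members, such as FOXO1, FOXO4 and IRS2, could not be read at this depth.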
